A study of Mus musculus with 18 samples.

Results

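Isg15, the enzymes that attach its product to proteins and the protease that takes it off were followed through 18 RNA-seq libraries of mouse adipocytes. The 6 genes were given by name: Isg15 itself, the E1 enzyme gene Uba7, the E2 enzyme gene Ube2l6, the ligase genes Herc6 and Trim25, and Usp18. They are 6 of the 33440 genes of the tables, and all 6 passed the filter on low counts in every comparison, so no member is missing from the counts below.

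ISG15 is a small protein built like a pair of joined ubiquitins, and interferon strongly induces its gene. UBA7 activates it, UBE2L6 carries it and a ligase joins it to lysines of other proteins, while USP18 cleaves it off again. Mouse cells lack HERC5, the main human ligase for ISG15, and HERC6 does that work; TRIM25, better known as a ubiquitin ligase of the RIG-I pathway, has also been described as an ISG15 ligase. USP18 has a second role that needs no protease activity, since it binds the type I interferon receptor and dampens its signal. IRF3, the transcription factor that both experiments manipulated, is activated downstream of TLR3, TLR4 and the cytosolic nucleic acid sensors, and Isg15 is among the genes that it can switch on directly.

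In the gain-of-function experiment, stromal vascular fraction (SVF) cells of the inguinal fat of IRF3-2D mice aged 4 to 6 weeks were differentiated in culture. These mice carry an allele of constitutively active IRF3 that Cre switches on. On day 6 the 3 WT cultures sequenced had received AAV-GFP and the 3 FI3OE cultures AAV-GFP-Cre, and cells were harvested on day 8, so that the WT cells also carried the allele, in unrecombined form, and the groups differed in Cre as well as in IRF3. In the loss-of-function experiment, C57BL/6 mice ate a high-fat diet for 8 weeks at thermoneutrality and ribosome-bound RNA of the epididymal fat (eWAT) was isolated by translating ribosome affinity purification (TRAP). Adipoq-Cre, which acts in adipocytes, switched on the GFP-tagged ribosomal protein in both groups, WT (Ad-NuTRAP, 6 libraries) and FI3KO (FI3KO-Ad-NuTRAP, 6 libraries), and in FI3KO it also deleted floxed Irf3; the study's methods give a starting age only for mice fed this diet for longer, so that of the TRAP mice is not stated here. The labels call every library a biological replicate but do not say whether each came from its own animal or culture, so p-values measure the spread between these libraries only. In bulk samples of this kind, fewer cells of a type and less RNA per cell cannot be told apart.

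Libraries held 21541334 to 25403517 assigned reads in WT and 23659055 to 36932452 in FI3OE SVF-derived adipocytes, and 25729179 to 37933320 in WT and 25259869 to 40490283 in FI3KO TRAP. Adipocyte markers (8 genes, summed, none at 0) are given in CPM (reads per 1000000 assigned reads of the library). Their sum was 10325 to 10563 CPM in WT and 9692 to 9811 CPM in FI3OE SVF-derived adipocytes. In TRAP it was 35242 to 41486 CPM in WT and 29590 to 32465 CPM in FI3KO, lower without overlap in both comparisons. The marker that fell most in CPM was Lpl in FI3OE (mean 5164 CPM in WT, 4293 CPM in FI3OE). In FI3KO it was Lep (9581 CPM in WT, 2975 CPM in FI3KO). By adjusted p 2 of the 8 were higher and 4 lower in FI3OE, and 3 higher and 1 lower in FI3KO. Macrophage markers (12 genes) summed to 2140 to 2391 CPM in the SVF-derived adipocytes and 14.8 to 103 CPM in TRAP, none at 0 in any group. Lymphocyte markers stayed below 1.19 CPM in sum in every library, with Nkg7 among those at 0 in all SVF-derived adipocytes. In the chi-square between libraries, TRAP replicates 1 and 2 differed from replicates 3 to 6, in FI3KO by its value per degree of freedom (121 to 291, and 18.1 to 92.9 within these sets) and in WT by its median per gene (5.73 to 8.13, and 0.77 to 4.94 within). By the other of these measures the ranges overlapped in each genotype. WT replicates 1 and 2 were more alike (2.57 per degree of freedom) than any other TRAP pair (8.97 to 291), and may not be independent samples.

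Irf3 was read first as a check of the labels. The SVF-derived adipocytes held 57.4 ± 1.0 CPM of it without Cre and 94.4 ± 5.2 CPM with Cre (SD, 3 libraries each), a rise without overlap (log2 fold change 0.73, SE 0.046, edgeR adjusted p = 3.3e-07). In TRAP the sum over its transcripts was 20.4 ± 2.1 CPM in WT and 15.5 ± 2.2 CPM in FI3KO (n = 6 each) and fell by 0.35 on the log2 scale (SE 0.106, edgeR adjusted p = 0.0198), with overlapping groups; replicates 1 and 2 alone gave -0.18 (adjusted p = 0.452). The transcripts separated the genotypes where the sum did not: Irf3-202 held 163.6 to 388.1 estimated reads in the WT libraries and was at 0 in each of the 6 FI3KO libraries, whereas the short Irf3-211 held 0 to 7.6 reads in WT and 89.9 to 175.3 in FI3KO. With an offset for transcript length the Irf3 difference in TRAP turned to 0.71 (adjusted p = 0.0018), so the gene sum is a poor measure of the deletion.

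The 6 genes lie on 5 chromosomes (GRCm38). Isg15 (ENSMUSG00000035692) is at chr4:156199424-156200818 on the minus strand and Uba7 (ENSMUSG00000032596) at chr9:107975505-107984060 on the plus strand. Ube2l6 (ENSMUSG00000027078) is at chr2:84798828-84810335 and Trim25 (ENSMUSG00000000275) at chr11:88999376-89020293, both on the plus strand. Herc6 (ENSMUSG00000029798) at chr6:57581000-57664632 and Usp18 (ENSMUSG00000030107) at chr6:121245906-121270917 share a chromosome and the plus strand. The libraries do not keep strand, and 3 little-expressed genes overlap members: Gm20661 overlaps Uba7 with at most 0.27 CPM, Gm45193 overlaps Herc6 with at most 1.93 CPM and Gm44148, on the opposite strand, overlaps Usp18 with at most 0.78 CPM.

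The promoters are shown because IRF3 and the interferon-activated complex ISGF3 bind repeats of GAAA, and the data below put the members side by side after IRF3 activation. RefSeq promoters (GRCm38.p6, 250 bases before to 50 after the start site) were matched for 5 of the 6 members; Usp18 had no entry. The core of the interferon-stimulated response element, GAAA-NN-GAAA on either strand, was found in 3.44% of the 32851 promoters of the table and, among the 5 members, in Isg15, where 3 overlapping copies run from -78 to -57 relative to the start site. The shorter AANNGAAA, which overlaps the longer motif and was added after the sequences had been seen, was found in 23.9% of all promoters and in Isg15, Uba7 and Trim25. The stretches around these matches follow 5′ to 3′ on the strand of the gene, with matches to either motif in capitals.
Isg15, chr4:156200855-156200966, minus strand, from -148 to -37: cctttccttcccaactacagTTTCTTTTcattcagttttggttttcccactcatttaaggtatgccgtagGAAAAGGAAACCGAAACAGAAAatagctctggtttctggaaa
Uba7, chr9:107975520-107975567, plus strand, from -47 to 1: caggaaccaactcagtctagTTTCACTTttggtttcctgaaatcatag
Trim25, chr11:88999379-88999426, plus strand, from -24 to 24: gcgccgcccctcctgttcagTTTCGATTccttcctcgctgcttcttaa
In Isg15 the longer run of capitals holds the 3 overlapping copies, while Uba7 and Trim25 carry 1 isolated match each, on the opposite strand. Ube2l6 and Herc6 held neither motif in this window. A match is a description of letters and not a measured binding site.

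All 6 genes of the pathway were higher in FI3OE than in WT SVF-derived adipocytes, in every library. Isg15 rose most, 3.68-fold, followed by Herc6 (2.69-fold), Usp18 (2.65-fold), Ube2l6 (2.38-fold) and Uba7 (1.98-fold), and Trim25 rose least (1.37-fold). With the 2 cutoffs together, an adjusted p of at most 0.05 and a log2 fold change of at least 1, 4 of the 6 were called, all higher, where 3.62% of the 16105 genes tested were called, 1.99% higher and 1.63% lower. With the adjusted p alone 6 of 6 were called higher, against 37% of all genes in either direction (20.2% higher, 16.8% lower), and the groups of all 6 did not overlap, against 24.1% of all genes that were higher without overlap. The median log2 fold change of the 6 was 1.33, beside -0.00 over all genes tested.

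**Figure D1:**
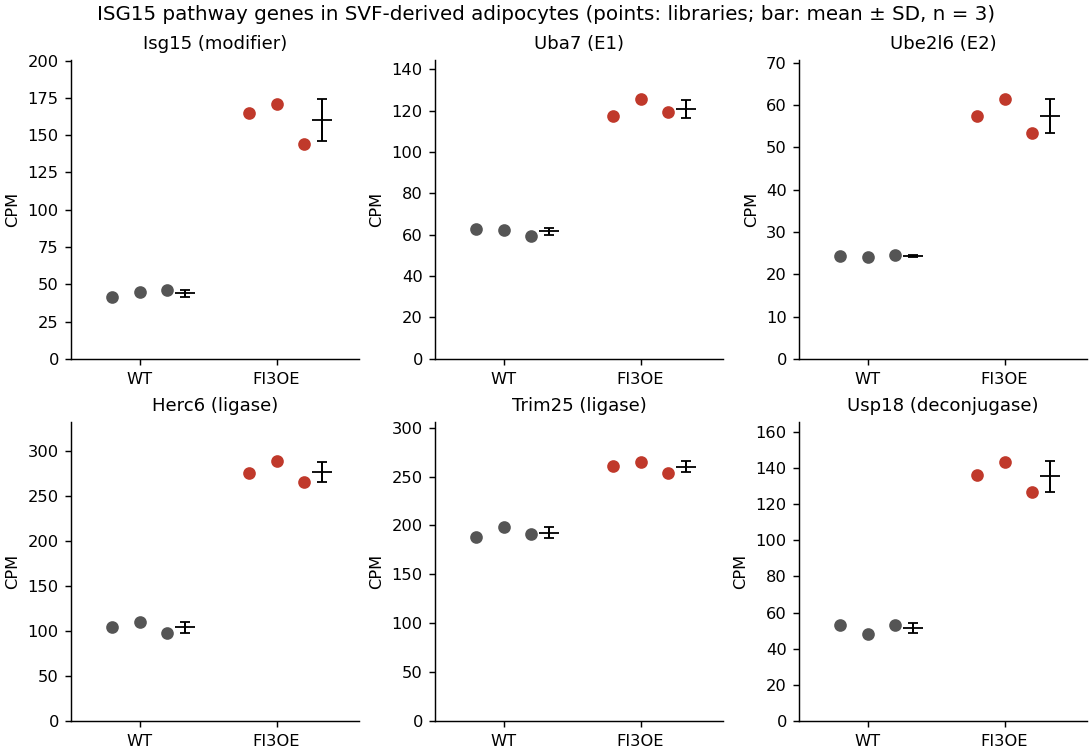
CPM of each of the 6 genes in the 3 WT and 3 FI3OE libraries of SVF-derived adipocytes; points are libraries, the line is the group mean and the bar its SD, and each panel has its own linear axis. In every panel the 3 FI3OE points lie above the 3 WT points.

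Isg15, the modifier, stood at 41.3, 44.5 and 46.1 CPM in the WT libraries and at 165.1, 171.0 and 144.3 CPM in the FI3OE libraries. The lowest FI3OE library was thus far above the highest WT library, and the spread within each group was small beside the gap. The means of 44.0 ± 2.5 and 160.1 ± 14 CPM (SD, n = 3 each) gave a log2 fold change of 1.88 (SE 0.067, 95% interval 1.73 to 2.03, edgeR adjusted p = 4.2e-09), the 57th highest of 16105 genes. All reads of Isg15 fell on 1 annotated transcript of 703 nucleotides, so its sum does not rest on a split between isoforms.

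Uba7, the E1 that activates ISG15, stood at 62.7, 62.5 and 59.6 CPM in WT and at 117.4, 125.6 and 119.3 CPM in FI3OE. The groups were tight and far apart, and the log2 fold change of 0.99 (SE 0.041, interval 0.90 to 1.08, edgeR adjusted p = 1.2e-08) lay just under the fold cutoff. It passed that cutoff in 3 of the 6 fits that left out 1 library, where its value ranged from 0.95 to 1.02. Ube2l6, the E2, stood at 24.3, 24.2 and 24.6 CPM in WT and at 57.4, 61.4 and 53.4 CPM in FI3OE. Its WT libraries were nearly equal and its lowest FI3OE library was above all of them (log2 fold change 1.25, SE 0.058, interval 1.12 to 1.38, edgeR adjusted p = 2.5e-08).

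Herc6, the principal ISG15 ligase of the mouse, stood at 104.2, 110.3 and 97.9 CPM in WT and at 275.1, 288.3 and 265.6 CPM in FI3OE. It had the second largest rise of the 6, with no overlap (log2 fold change 1.43, SE 0.050, interval 1.32 to 1.54, edgeR adjusted p = 3.8e-09). Trim25, the other ligase, stood at 187.8, 198.7 and 191.0 CPM in WT and at 260.9, 265.3 and 254.1 CPM in FI3OE. It rose less than the other 5, with an interval of 0.37 to 0.54 that lies below each of theirs (log2 fold change 0.45, SE 0.039, edgeR adjusted p = 3.99e-06). Usp18, the protease that removes ISG15, stood at 53.1, 48.2 and 53.3 CPM in WT and at 136.2, 143.3 and 126.5 CPM in FI3OE. Its rise had nearly the size of that of Herc6 (log2 fold change 1.41, SE 0.055, interval 1.29 to 1.53, edgeR adjusted p = 8.1e-09).

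The modifier was also set against the protease within each library. The log2 ratio of Isg15 to Usp18 in CPM was -0.36, -0.11 and -0.21 in WT and 0.28, 0.26 and 0.19 in FI3OE, so that Usp18 had more reads than Isg15 in every WT library and fewer in every FI3OE library, reads not being scaled by length here. The difference was 0.47, and the two-sided exact permutation test gave p = 0.1, the smallest value that 3 against 3 libraries allow.

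Macrophage markers, which mark cells that also express interferon-stimulated genes, were slightly lower in sum in FI3OE (2140 to 2154 CPM) than in WT (2242 to 2391 CPM), without overlap. The marker that fell most was Mrc1 (mean 436 CPM in WT, 235 CPM in FI3OE). Of the 12 markers, 2 were called higher and 4 lower by adjusted p, where 20.2% of all genes were higher and 16.8% lower. Past both cutoffs were 0 of them, where 3.62% of all genes were, and their median log2 fold change was 0.01. Of the 8 adipocyte markers 2 were called higher and 4 lower by adjusted p, beside the same shares of all genes, with a median of -0.07. The part of either list in the levels of the 6 genes was not tested.

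The transcripts of Uba7 added a further difference between WT and FI3OE. Reads that Salmon placed on the protein-coding transcript Uba7-201 (3195 nucleotides) amounted to 32.3 to 36.5 CPM in WT and 82.5 to 88.3 CPM in FI3OE, and those on its other annotated transcripts, mainly with retained introns, to 26.2 to 27.4 and 34.9 to 37.4 CPM. The coding share was therefore 54.3 to 58.2% of Uba7 reads in WT and 70.3% in FI3OE. These transcripts share most of their sequence, so the division between them is an estimate. Herc6 had a coding share of 71.9 to 77.8% in WT and 77.3 to 78.7% in FI3OE, which overlapped.

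**Figure D2:**
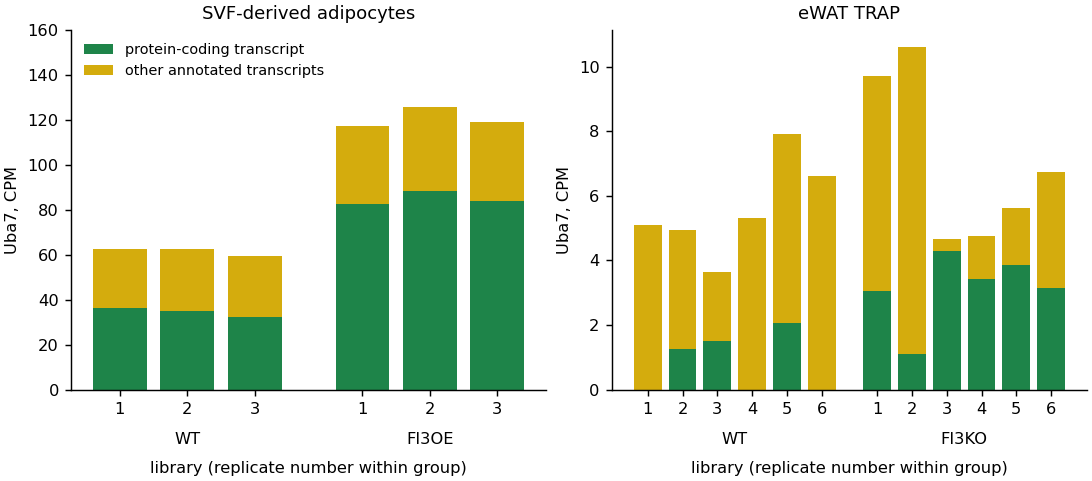
Estimated reads of Uba7, in CPM, on the protein-coding transcript (green) and on its other annotated transcripts (yellow), stacked for each library of the SVF-derived adipocytes and of eWAT TRAP; the vertical axes of the 2 panels differ. The coding part is the larger one in all SVF-derived libraries, with 54.3 to 58.2% in WT and 70.3% in FI3OE, and FI3KO replicates 1 and 2 have the tallest bars of the TRAP panel.

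The other genes of the pathway were read in the same fit. They were the ligase gene Arih1, further proteases that act on ISG15, the LFA-1 receptor of secreted ISG15, and the receptor and transcription factors upstream. Of these 15 genes, 7 were higher and 2 lower by adjusted p, where 20.2% of all genes were higher and 16.8% lower. In this list 1 passed both cutoffs, where 3.62% of all genes did, and the median log2 fold change was 0.12. The 1 past both was Irf7, the interferon-induced relative of IRF3, at 242.4, 261.7 and 240.3 CPM in WT and 562.2, 606.3 and 559.5 CPM in FI3OE (log2 fold change 1.23, edgeR adjusted p = 8.14e-09). Stat2 and Irf9, which carry the interferon signal to the nucleus, rose by less than the cutoff, with log2 fold changes of 0.83 (edgeR adjusted p = 1.29e-07) and 0.63 (1.83e-06). Usp5, a protease with activity towards several ubiquitin-like proteins, had 0.12 (adjusted p = 0.043), a call lost without any 1 of 4 of the 6 libraries (highest adjusted p = 0.153, without WT replicate 3) and with the length offset (0.039, adjusted p = 0.631). The ubiquitin ligase gene Arih1 had a value of -0.03 (adjusted p = 0.564).

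Of 18 genes whose proteins have been reported to carry ISG15, 17 were tested; 11 were higher and 1 lower by adjusted p, where 20.2% of all genes were higher and 16.8% lower, with a median of 0.24. The interferon-induced RNA-binding proteins Ifit1 (223.9 ± 5.9 CPM in WT, 933.7 ± 29.8 CPM in FI3OE; log2 fold change 2.08, edgeR adjusted p = 1.63e-10) and Ifit3 (159.7 ± 6.1 and 801.3 ± 79.7 CPM; 2.34, 1.08e-09) passed both cutoffs, with fold changes above that of Isg15. Among the most abundant members of this list, the lactate dehydrogenase gene Ldha rose by 0.49 (adjusted p = 0.00037) and the kinase gene Jak1 had -0.10 (adjusted p = 0.063), which passed with DESeq2 (adjusted p = 0.0289) and with a replicate block (0.0485).

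The cascades of other ubiquitin-like proteins, 30 genes, served as a comparison. Of these, 11 were higher and 4 lower by adjusted p, where 20.2% of all genes were higher and 16.8% lower, 1 passed both cutoffs, as 3.62% of all genes did, and the median was 0.07, beside 1.33 for the ISG15 genes. The 1 past both was Ubd, which encodes the cytokine-induced modifier FAT10, with a mean of 1.90 CPM in WT and 3.99 CPM in FI3OE (log2 fold change 1.09, edgeR adjusted p = 0.000146). The polyubiquitin gene Ubb rose by 0.29 (adjusted p = 4.2e-05), and the ubiquitin E2 gene Ube2d3 had -0.06 (0.226). With the length offset Ube2d3 had -0.15 and passed (edgeR adjusted p = 0.0387).

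**Figure D3:**
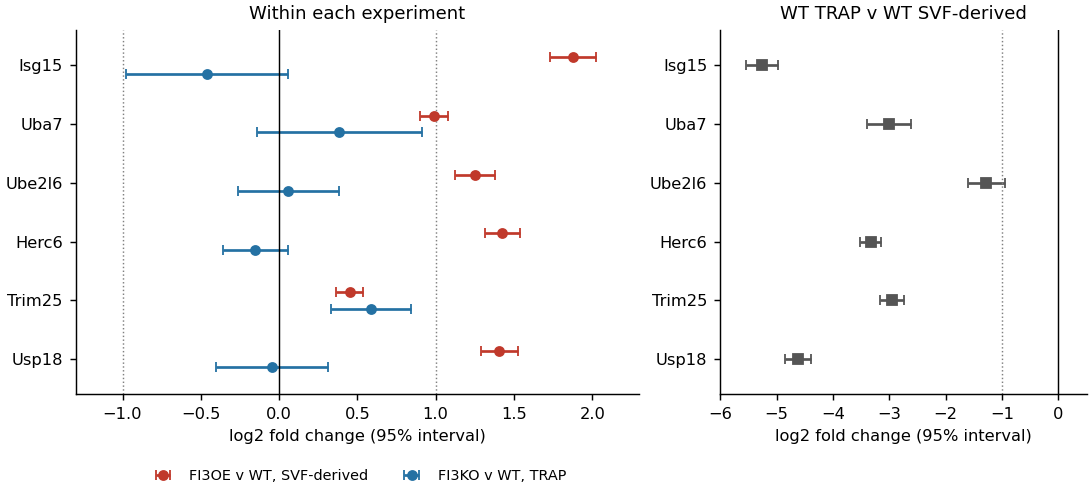
Log2 fold change of each of the 6 genes with 95% intervals of the edgeR fit, in the left panel for FI3OE v WT SVF-derived adipocytes (red) and FI3KO v WT TRAP (blue), in the right panel for WT TRAP v WT SVF-derived adipocytes; dotted lines mark the fold cutoff. In the SVF-derived adipocytes all 6 intervals lie above 0, and in TRAP 1 of 6, that of Trim25; in the right panel all 6 lie below 0.

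In eWAT TRAP, loss of IRF3 left most of the pathway without a detected change. By adjusted p 1 of the 6 genes was called, Trim25, which was 1.5-fold higher in FI3KO, where 37.4% of the 13624 genes tested were called, 19.1% higher and 18.3% lower. With both cutoffs 0 of 6 were called by edgeR and 0 by DESeq2, against 6.61% of all genes (1.74% higher, 4.87% lower). In no member were the FI3KO and WT libraries fully apart, where 5.39% of genes were higher and 9.82% lower without overlap. The median log2 fold change of the 6 was 0.01, beside 0.02 over all genes.

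**Figure D4:**
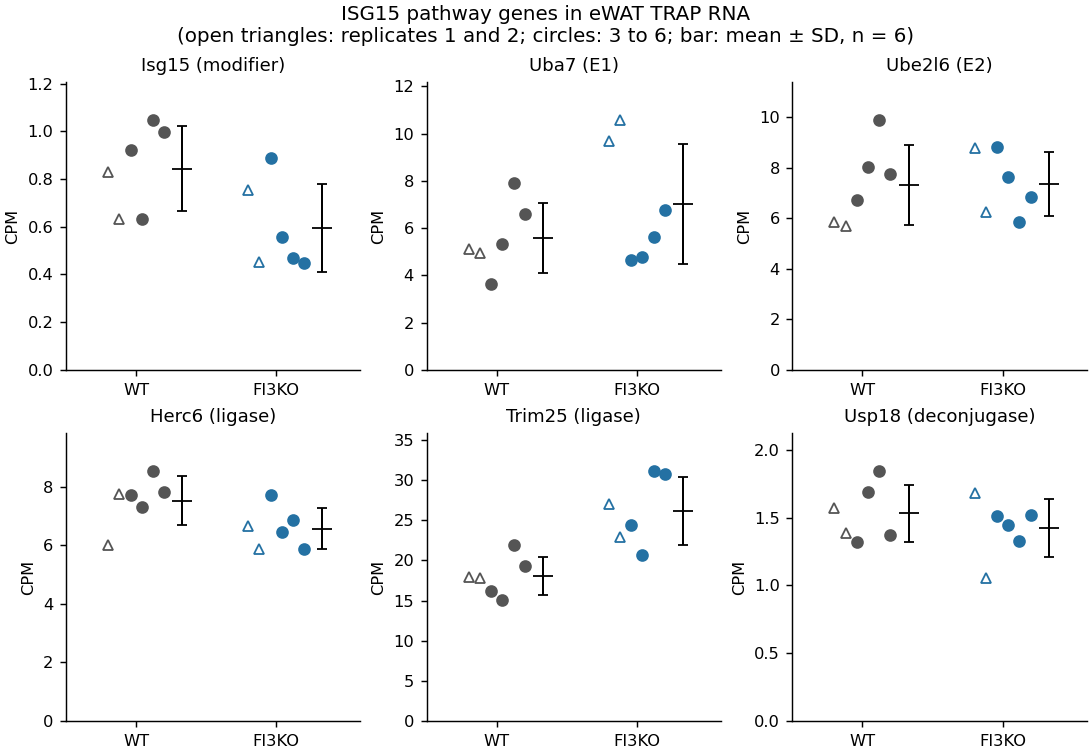
CPM of each of the 6 genes in the 6 WT and 6 FI3KO TRAP libraries; triangles are replicates 1 and 2, circles replicates 3 to 6, and the bar beside them is the mean ± SD. The ranges of the groups overlap in every panel, and in the Uba7 panel FI3KO replicates 1 and 2 lie above all other libraries.

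Isg15 was close to the floor of these libraries, with 22 to 30 reads in each WT library and 14 to 24 in each FI3KO library. Counting error alone gives 14 reads an exact Poisson 95% interval of 7.65 to 23.5, and 30 reads one of 20.2 to 42.8. It ranged from 0.63 to 1.05 CPM in WT (median 0.88) and from 0.45 to 0.89 CPM in FI3KO (median 0.51). Most FI3KO libraries lay below the lowest WT library, but the groups overlapped and the difference did not pass (log2 fold change -0.46, SE 0.240, interval -0.98 to 0.06, edgeR adjusted p = 0.149), although it passed in the fit of all 18 libraries together (-0.48, adjusted p = 0.0415). The interval reaches from a fall near the fold cutoff to a slight rise, so the size of any change was not settled at this depth.

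Uba7 ranged from 3.65 to 7.93 CPM in WT (median 5.22) and from 4.66 to 10.6 CPM in FI3KO (median 6.19). The 2 highest libraries were FI3KO replicates 1 and 2, at 9.70 and 10.6 CPM, whereas FI3KO replicates 3 to 6 (4.66 to 6.75 CPM) lay inside the range of WT. Over all libraries the log2 fold change was 0.38 (SE 0.245, interval -0.14 to 0.91, edgeR adjusted p = 0.234).

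Within the replicate sets, which the labels do not explain, Uba7 gave 1.08 in replicates 1 and 2 (adjusted p = 0.0212, from 2 against 2 libraries of which the WT pair was nearly alike) and -0.06 in replicates 3 to 6 (adjusted p = 0.855). The difference between the sets was -1.13 (SE 0.354, edgeR interaction adjusted p = 0.0343), where 26.5% of all genes had a called interaction. Most of the Uba7 reads in FI3KO replicates 1 and 2 were placed outside the coding transcript (6.64 and 9.50 CPM), where FI3KO replicates 3 to 6 held 0.38 to 3.61 CPM and the WT libraries 2.14 to 6.60 CPM. The coding transcript itself held 1.1 to 4.28 CPM in FI3KO and 0 to 2.06 CPM in WT, overlapping, with 3 WT libraries listed at 0.

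Ube2l6 ranged from 5.71 to 9.92 CPM in WT and from 5.85 to 8.81 CPM in FI3KO, with a median of 7.24 CPM in each. The ranges were nearly the same (log2 fold change 0.06, SE 0.150, interval -0.27 to 0.38, edgeR adjusted p = 0.787). Herc6 ranged from 6.00 to 8.54 CPM in WT (median 7.73) and from 5.86 to 7.70 CPM in FI3KO (median 6.54), a log2 fold change of -0.15 (SE 0.096, interval -0.36 to 0.06, adjusted p = 0.232). Its interval excludes a fall of the size of its rise in FI3OE. Usp18 ranged from 1.32 to 1.85 CPM in WT and from 1.05 to 1.68 CPM in FI3KO, with medians of 1.48 CPM in both (log2 fold change -0.05, SE 0.165, interval -0.40 to 0.31, adjusted p = 0.848). The intervals of Ube2l6 and Usp18 likewise exclude falls as large as their rises in FI3OE, as do those of Isg15 (lower limit -0.98) and Uba7 (-0.14). Those rises were measured in cultured cells of another depot. There the WT level was 2.43-fold higher for Ube2l6, 10.1-fold for Herc6 and 24.6-fold for Usp18, so the sizes are not directly comparable.

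Trim25 ranged from 15.1 to 22.0 CPM in WT (median 17.8) and from 20.6 to 31.2 CPM in FI3KO (median 25.7). The FI3KO libraries lay above all WT libraries except for 1, at 20.6 CPM, and the log2 fold change was 0.59 (SE 0.118, interval 0.33 to 0.84, edgeR adjusted p = 0.0024). The gene that moved least with IRF3 activation was thus the 1 member called after IRF3 deletion, where 19.1% of all genes were called higher. Its level was higher in both FI3OE and FI3KO. Salmon placed 56.5% of its TRAP reads on the transcript Trim25-203 in WT and 86.4% in FI3KO, a division that is an estimate. With the length offset the log2 fold change in TRAP was 0.39 (edgeR adjusted p = 0.017). Replicates 1 and 2 alone gave 0.55 (adjusted p = 0.0671) and replicates 3 to 6 alone 0.61 (adjusted p = 0.00961). No interaction with the replicate sets was called for Trim25 (adjusted p = 0.872), Ube2l6 (0.157), Isg15 (0.655), Herc6 (0.748) or Usp18 (0.970).

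The log2 ratio of Isg15 to Usp18 was -0.88 ± 0.36 in WT and -1.3 ± 0.34 in FI3KO TRAP (SD, n = 6 each). Both genes had few reads here: Usp18 held 41.4 to 58.6 estimated reads in the WT libraries and 32.6 to 53.8 in the FI3KO libraries. The difference of -0.42 did not pass the two-sided exact permutation test (p = 0.0714, smallest possible 0.00216). Without FI3KO replicate 3, or without WT replicate 4, it was -0.53 and the exact p fell to 0.026, whereas without any 1 of the others it lay between -0.47 and -0.33 (exact p = 0.0628 to 0.139).

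Macrophage markers were lower in FI3KO TRAP RNA: 9 of the 11 tested passed both cutoffs, all lower, where 6.61% of all genes did (4.87% lower). The median log2 fold change of these markers was -1.5. Their sum was 40.5 to 103 CPM in WT and 14.8 to 48.9 CPM in FI3KO. It was 37.4 to 48.9 CPM in FI3KO replicates 1 and 2, the libraries with the most Uba7, and 14.8 to 18.5 CPM in FI3KO replicates 3 to 6. In WT it was 40.5 to 41.1 CPM in replicates 1 and 2 and 75.5 to 103 CPM in replicates 3 to 6. Of the 8 adipocyte markers 3 were called higher and 1 lower by adjusted p, with a median of 0.20. Among all genes 19.1% were higher and 18.3% lower. The 1 lower was Lep (log2 fold change -1.63, edgeR adjusted p = 0.0001), which fell most in the lower sum of the 8. The part of either list in the values of the 6 genes was not tested.

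The other pathway genes gave 0 higher and 3 lower of 15 by adjusted p in TRAP, where 19.1% of all genes were higher and 18.3% lower, with a median of 0.04 beside 0.02 over all genes. Ifnar2, the receptor chain that USP18 binds, fell by 0.49 on the log2 scale (adjusted p = 0.000176), without overlap of the groups. The leukocyte integrin gene Itgb2, part of the receptor for secreted ISG15, passed both cutoffs (-1.79, edgeR adjusted p = 0.0203) at means of 3.53 CPM in WT and 0.97 CPM in FI3KO, but not without WT replicate 3 (-1.42, adjusted p = 0.057), and its direction turned in replicates 1 and 2 alone (0.36); macrophages, whose markers were lower, express it too. Irf7, which had risen most of this list in FI3OE, ranged from 3.46 to 4.90 CPM in WT and from 2.51 to 5.66 CPM in FI3KO (0.05, adjusted p = 0.875). Irf9 had 0.22 (adjusted p = 0.113; 0.30 in replicates 3 to 6, adjusted p = 0.0323), Usp5 0.09 (0.285), Usp14 0.07 (0.325) and Arih1 0.06 (0.419).

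Of the 17 reported substrates tested in TRAP, 1 was higher and 6 lower by adjusted p, where 19.1% of all genes were higher and 18.3% lower. In all, the number called was near the 37.4% of all genes. Past both cutoffs were 0, where 6.61% of all genes were, and the median was -0.18. Ifit1 and Ifit3, the strongest of the list in FI3OE, had -0.17 (adjusted p = 0.665) and 0.22 (0.275), but Ifit3 was higher in FI3KO in replicates 3 to 6 alone (0.55, adjusted p = 0.00196) and had -0.35 in replicates 1 and 2 alone (0.133). Jak1 fell by 0.29 (adjusted p = 0.00902), a call absent in replicates 1 and 2 alone (-0.022, adjusted p = 0.854) and with the length offset (-0.26, 0.0514). The ubiquitin E2 gene Ube2n fell by 0.20 (0.0132). Ldha had -0.18 (adjusted p = 0.225), with -0.31 in replicates 3 to 6 (0.0434), and the autophagy gene Becn1 had 0.13 (0.149).

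Among the 30 genes of other cascades, 1 was higher and 10 lower by adjusted p in TRAP, in all near the 37.4% of all genes called (19.1% higher, 18.3% lower), with a median of -0.13. Ubd was the 1 past both cutoffs. It ranged from 8.43 to 50.2 CPM in WT and from 0.74 to 5.70 CPM in FI3KO, without overlap (log2 fold change -3.41, SE 0.600, edgeR adjusted p = 0.00111). The fall depended on the replicates: it was -0.53 in replicates 1 and 2 (adjusted p = 0.0797), and the sets differed by -4.19 (SE 0.462, interaction adjusted p = 7.63e-05). The modifier gene Nedd8 fell by 0.29 (adjusted p = 0.00582), while Ubb had 0.06 (0.688). Ube2d3 fell by 0.20 (adjusted p = 0.0271), a call lost without WT replicate 3 (-0.17, adjusted p = 0.0765). That call was also lost without the filter on low counts (-0.19, 0.0921), with the length offset (-0.20, 0.0556) and in replicates 1 and 2 (-0.27, 0.131).

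The baseline of the pathway differed widely between the WT groups. All 6 genes were lower in WT eWAT TRAP than in WT SVF-derived adipocytes and passed both cutoffs, where 46.9% of the 16454 genes tested were called, 29.5% lower, and 55.9% were lower without overlap. Isg15 was 38.3-fold lower (log2 fold change -5.26, SE 0.130, edgeR adjusted p = 1.98e-10) and Usp18 24.6-fold lower (-4.62, SE 0.103). Herc6 was 10.1-fold lower (-3.33, SE 0.086), Uba7 8.05-fold (-3.01, SE 0.176) and Trim25 7.77-fold (-2.96, SE 0.095). Ube2l6 stood out with the smallest difference, 2.43-fold (-1.28, SE 0.148, interval -1.61 to -0.95, adjusted p = 1.49e-05).

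The median of the 6 was -3.17, beside -0.07 over all genes; that overall median moved to -0.36 without the filter on low counts, and the 6 calls were kept in all 16 alternatives. Depot, culture, diet, AAV and the pull-down differ together between these groups and cannot be told apart. The macrophage markers moved the same way, with 11 of 12 lower past both cutoffs and a median of -5.12 over the list (Lyz2 at means of 769 CPM in SVF-derived adipocytes and 16.1 CPM in TRAP). The remaining 1 of the 12 went the other way and was higher past both cutoffs in TRAP. The 5 fibroblast and preadipocyte markers summed to 453 to 489 CPM in WT SVF-derived adipocytes and 7.77 to 15.3 CPM in WT TRAP. Most of the sum in SVF-derived adipocytes was Pdgfra (mean 442 CPM, and 2.75 CPM in TRAP). Past both cutoffs 3 of the 5 were lower in TRAP and 1 was higher, Dpp4 (mean 0.75 CPM in SVF-derived adipocytes, 4.44 CPM in TRAP). Of the adipocyte markers 7 of 8 were higher past both cutoffs. The part of these cell types in the baseline was not tested.

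**Figure D5:**
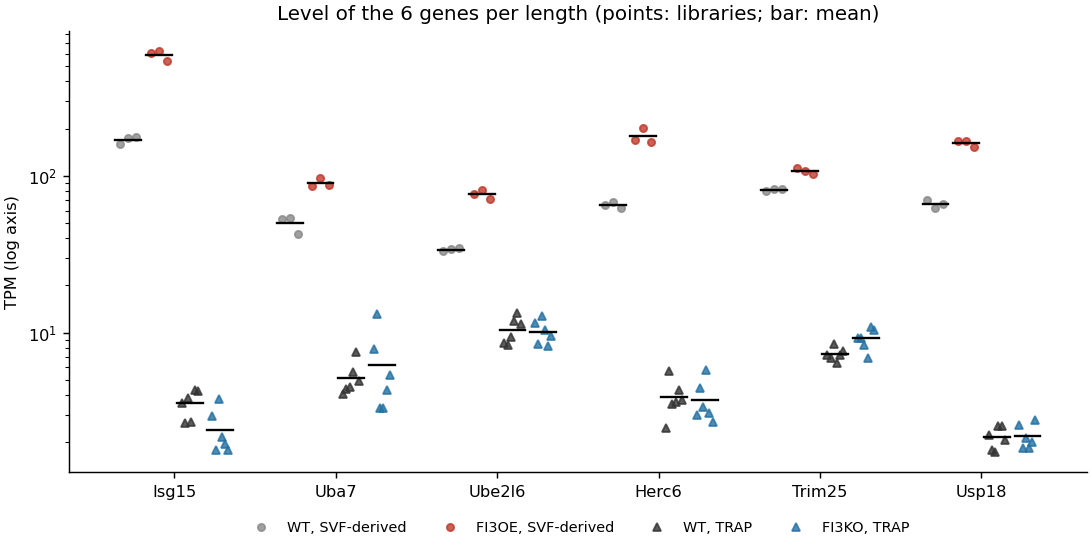
TPM of each of the 6 genes in every library of the 4 groups, on a log axis; points are libraries and the line is the group mean. Isg15 is the highest member in both groups of SVF-derived adipocytes and, by its mean, the fifth in both TRAP groups, where most neighbours overlap.

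In TPM, which scales reads by transcript length and then to a total of 1000000 per library, the order of the members differed between the experiments. In WT SVF-derived adipocytes Isg15 led with 170 ± 9.3 TPM, followed by Trim25 (81.5 ± 1.2 TPM), Usp18 (66.3 ± 3.8 TPM), Herc6 (65.0 ± 3.2 TPM), Uba7 (49.9 ± 6.3 TPM) and Ube2l6 (33.8 ± 0.72 TPM; SD, n = 3). Usp18 and Herc6 overlapped, and the other neighbours in that order did not. In FI3OE Isg15 reached 591 ± 44 TPM and Herc6 (178 ± 21 TPM) and Usp18 (162 ± 8.3 TPM), which overlapped, passed Trim25 (107 ± 4.7 TPM), with Uba7 (90.0 ± 5.5 TPM) and Ube2l6 (76.4 ± 4.6 TPM) again last. The modifier thus had the most abundant transcript of the 6 in both groups and its E2 the least abundant one.

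In WT TRAP the order was another one. Ube2l6 led with 10.4 ± 2.0 TPM, then Trim25 (7.31 ± 0.71 TPM), Uba7 (5.15 ± 1.3 TPM), Herc6 (3.87 ± 1.1 TPM), Isg15 (3.54 ± 0.72 TPM) and Usp18 (2.15 ± 0.35 TPM; n = 6). Each gene overlapped its neighbour in that order, except Isg15 and Usp18, where Isg15 was higher in 6 of 6 libraries. Herc6 stood above Isg15 by its mean but in only 2 of 6 libraries, so that their places are not settled. FI3KO kept the order, from 10.2 ± 1.8 TPM for Ube2l6 to 2.40 ± 0.81 TPM for Isg15 and 2.19 ± 0.39 TPM for Usp18, with every neighbour overlapping. Ube2l6 and Trim25 exchanged places in 3 of the 6 FI3KO libraries.

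Genes whose pattern was most like a member were found by the root mean square difference of log2 CPM over the 18 libraries, after the mean of each gene within each experiment was subtracted. The search covered genes that averaged 3 or more in log2 CPM in both experiments, a limit that Isg15, Uba7, Herc6 and Usp18 do not reach in TRAP themselves. Closest to Isg15 among 8041 genes were Dok1 (0.211), the interferon-induced Ifit2 (0.253), Adap1 (0.285), Rhod (0.307) and the interferon-induced surface protein gene Bst2 (0.313). Usp18 was nearest to the MHC class I gene H2-T23 (0.125) and to Bst2 (0.142), and Herc6 to Parp11 (0.118) and H2-T23 (0.140). Ube2l6 was nearest to Phlda3 (0.162) and Parp11 (0.170), Uba7 to B430305J03Rik (0.288) and Agrn (0.301), and Trim25 to Jpt1 (0.150) and Klhl26 (0.154).

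Among the members themselves Ube2l6 and Usp18 were the closest pair (0.166, with 1 other gene closer to Ube2l6), then Herc6 and Usp18 (0.183) and Herc6 and Ube2l6 (0.198). Isg15 was nearest to Herc6 (0.283) and farthest from Trim25 (0.652). These distances describe the 18 libraries, of which 12 are from TRAP, where all 6 genes have lower counts.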

How the data were processed

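The authors trimmed reads with bcl2fastq and fastp and quantified unstranded Ribo-Zero, Nextera XT libraries with Salmon 1.4.0 against GENCODE M24 (GRCm38). The deposited tables hold an estimated count and a TPM value for each of 118733 transcripts, both made by the authors with Salmon. Estimated counts were summed per gene with GENCODE M21 (117850 transcripts matched; the 883 others, 0.37 to 1.08% of reads, were kept as genes of their own), rounded and divided by the library total for CPM. Each comparison was fitted with edgeR 4.0.16 in R 4.3.3 (filterByExpr, TMM, quasi-likelihood test) and p-values were adjusted by Benjamini-Hochberg over all genes tested, with cutoffs at adjusted p 0.05 and log2 fold change 1; SE and interval come from the same fit.

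Alternatives were DESeq2 1.42.0, its size factors, other filters, a length offset, robust dispersions, 1 fit of all 18 libraries, a replicate block, replicate sets apart, TPM for the ratio, each library left out and, chosen after seeing the data, WT TRAP replicates 1 and 2 averaged. Named genes are the 6 members, Irf3, the genes most like a member (5 for Isg15, 2 for each other), and from 3 lists (other pathway genes, substrates, other cascades) those past both cutoffs and the 4 highest by WT TPM; Irf9 was added as a partner of Stat2, some genes that this rule names are not reported here, and values of a gene named in 1 experiment are given in both where useful. The members and lists were chosen with earlier results of these data known.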

Additional observations from a re-analysis of the deposited data

Results flagged for a closer look

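The effect of FI3KO on 2 genes differed between TRAP replicates 3 to 6 and replicates 1 and 2, by the edgeR interaction test. For Uba7 the difference was -1.13 (SE 0.354, adjusted p = 0.0343), with FI3KO above WT in replicates 1 and 2 (9.70 and 10.6 against 4.93 to 5.11 CPM) and inside the range of WT in replicates 3 to 6. For Ubd it was -4.19 (SE 0.462, adjusted p = 7.63e-05), with WT at 8.43 to 8.65 CPM in replicates 1 and 2 and 41 to 50.2 CPM in replicates 3 to 6, and FI3KO at 5.67 to 5.70 and 0.74 to 2.84 CPM. These replicate sets are sets of libraries and not groups of the study, and 26.5% of all genes had such an interaction. No library lay far enough from its group to be singled out in the 16 groups of 6 TRAP values examined, where chance would single out about 0.8, or 1 in 20.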

How the results depend on the processing

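In the SVF-derived adipocytes the 6 genes kept their direction and an adjusted p under 0.05 in all 14 alternatives, and in WT TRAP v WT SVF in all 16. Of the 583 genes past the cutoffs in SVF-derived adipocytes, the count was 5960 without the fold cutoff and 342 in 1 fit of all 18 libraries (551 to 623 with 1 library left out); the members past both were 4 to 5 with 1 library left out. In the fit of 18 libraries the substrates called by adjusted p there numbered 7 and the other cascades 1. In TRAP the 901 genes became 5095 without the fold cutoff, 574 with at least 10 counts in every library, 1355 in the fit of 18, 1868 in replicates 3 to 6 and 191 in replicates 1 and 2 (761 to 1115 with 1 left out). The members called there became 1 without the fold cutoff (Trim25) and 1 in replicates 1 and 2 (Uba7), and 0 with any 1 library left out. By adjusted p the pathway list went to 6 in replicates 3 to 6 and 0 in replicates 1 and 2 (2 to 4 with 1 left out), the substrates to 11 and 0 (6 to 8) and the other cascades to 0 in replicates 1 and 2 (10 to 12). The 7719 genes of WT TRAP v WT SVF became 13195 without the fold cutoff and 4035 with at least 10 counts (7535 to 7804 with 1 left out). The TRAP ratio of Isg15 to Usp18 was -0.63 with TPM (exact permutation p = 0.0368) and -0.53 to -0.33 with 1 library left out (0.40 to 0.53 in the SVF-derived adipocytes).

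The following values changed sign. In the SVF-derived adipocytes Arih1 was 0.041 with the length offset. In TRAP the length offset gave 0.11 for Usp18, 0.71 for Irf3 and -0.0083 for Usp14. Replicates 3 to 6 gave -0.057 for Uba7, -0.11 for Ube2l6 and 0.40 for Ifit1. Replicates 1 and 2 gave -0.34 for Irf7, -0.35 for Ifit3, -0.033 for Arih1, 0.12 for Ldha, -0.26 for Ubb and 0.36 for Itgb2. Averaging WT replicates 1 and 2 gave -0.0053 for Ube2l6 and 0.0018 for Ifit1. With 1 library left out the range was -0.020 to 0.16 for Ube2l6, -0.12 to 0.016 for Usp18, -0.053 to 0.17 for Irf7, -0.30 to 0.049 for Ifit1 and -0.0045 to 0.13 for Ubb. The calls of Ifnar2 (-0.41, adjusted p = 0.0523), Ube2n (-0.15, 0.267) and Nedd8 (-0.082, 0.548) were lost in replicates 1 and 2, and in the SVF-derived adipocytes those of Ubd (adjusted p = 0.519) and Ubb (0.262) in the fit of 18. The cause of these changes was not tested.

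Same-numbered libraries did not deviate together (correlations -0.05 to 0.02 in SVF-derived adipocytes, -0.29 to 0.10 in TRAP). With so few libraries these correlations cannot exclude pairing, and in TRAP the replicate sets described above follow the replicate numbers. Whether the numbers pair libraries was therefore not settled. With a replicate block 579 and 736 genes passed the cutoffs, each member kept its call, Trim25 in TRAP gave 0.58 (adjusted p = 0.00403), Irf3 in TRAP -0.36 (0.0538), Itgb2 -1.98 (0.0705) and Irf7 -0.0040, and in the SVF-derived adipocytes Usp5 0.12 (0.0644) and Jak1 -0.098 (0.0485). Depth limits Isg15 in TRAP, at 14 to 30 reads a library, and also Usp18 and the ratio of the 2 genes. The alternative for a near copy of Isg15 was not run.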
